A study of Mus musculus with 6 samples.

Results

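The genes described here are 10 members of the vascular endothelial growth factor (VEGF), neuropilin and angiopoietin families: Vegfa, Vegfb, Vegfc, Pgf, Flt1, Nrp1, Nrp2, Angpt1, Angpt2 and Angptl4. They were chosen by name from the gene symbols of the deposited tables, where each symbol was found once, and they are 10 of 18182 genes listed. The tumour cells belong to LLC, the Lewis lung carcinoma line of the mouse, and carried a red fluorescent protein (LLC-RFP). They were injected under the skin of wild type C57BL/6 mice either alone or together with bone marrow mesenchymal stem cells (BMSCs), and red fluorescent cells were sorted by flow cytometry from the primary tumours for RNA sequencing. LLC alone and LLC with BMSCs have 3 libraries each. The study's methods give young female mice for its allograft experiments with luciferase-carrying LLC cells, and do not repeat age or sex for the sorted LLC-RFP cells. The sources used here do not say in what state the BMSCs were co-injected, nor whether each library came from a separate mouse, so the spread between libraries may be technical. The comparison asks what co-injected BMSCs change in tumour cells, and here it is followed through the genes by which a cell instructs blood and lymph vessels.

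VEGF-A is the main growth signal for blood vessels and acts on endothelial cells through the receptor KDR. The receptor FLT1 binds VEGF-A tightly with little signalling of its own, and VEGF-B and placental growth factor (Pgf) bind FLT1 but not KDR. VEGF-C acts chiefly through FLT4 on lymphatic endothelium. Neuropilins are co-receptors shared by VEGFs and class 3 semaphorins. Angiopoietin 1 activates the endothelial receptor TIE2 (Tek) and steadies vessels, while angiopoietin 2 is a context-dependent antagonist at the same receptor. Angiopoietin-like 4 does not use TIE2 and is known as an inhibitor of lipoprotein lipase.

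Part of the result below lies in which exons of Vegfa and Vegfb were counted, so these exons are shown first. Vegfa lies on the minus strand of chromosome 17, at chr17:46016993-46032369 in build GRCm38. Its coding exons 6 and 7, numbered in the GENCODE M21 transcript that holds all coding exons, are alternative and encode the basic, heparin-binding part of the protein. Exon 6, at chr17:46022277-46022348, has 72 bases, and exon 7, at chr17:46020991-46021122, has 132 bases. The Vegfb segment, at chr19:6985496-6985596 on the minus strand, is coding throughout in the longer Vegfb transcript (NM_011697) and is absent from the shorter one (NM_001185164). The sequences run 5′ to 3′ on the coding strand and were read from the GENCODE M21 transcripts, and no base is capitalised.
Vegfa exon 6: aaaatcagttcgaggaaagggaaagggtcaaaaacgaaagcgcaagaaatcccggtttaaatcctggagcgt
Vegfa exon 7: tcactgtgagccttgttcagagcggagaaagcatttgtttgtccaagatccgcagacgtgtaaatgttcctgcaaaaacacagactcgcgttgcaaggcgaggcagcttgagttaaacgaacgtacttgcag
Vegfb segment: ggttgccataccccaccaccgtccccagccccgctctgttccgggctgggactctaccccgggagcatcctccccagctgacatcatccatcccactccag

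The libraries held between 33476347 and 46189113 estimated counts. Levels between genes are given as FPKM (fragments scaled to transcript length and library size), and fold changes come from edgeR's quasi-likelihood test on the estimated counts, with Benjamini-Hochberg adjustment over all 13353 genes tested. Of these genes, 62.9% passed an adjusted p of 0.05, 31.5% higher and 31.3% lower with BMSCs, and in 70.6% the FPKM values of the groups did not overlap, so a passed test is common in this comparison. LLC alone replicate 3 stood apart from the other libraries of its group: its genes of 6652 bases or longer had a median log2 deviation of -0.32 from the group mean, against 0.14 and 0.18 in replicates 1 and 2. Flt1, Nrp1 and Nrp2 have transcripts of about this length, and their values are given with and without that library. In the sorted cells, all 9 tested stromal markers and all 7 tested neutrophil markers were higher with BMSCs, with summed levels of 48.2 to 54.7 against 149 FPKM and of 0.29 to 0.64 against 43.7 to 52.8 FPKM. Most of the stromal sum was Col3a1 (41.2 ± 3.8 and 100 ± 1.5 FPKM). S100a8 and S100a9 made most of the neutrophil sum with BMSCs (20.2 ± 2.2 and 22.4 ± 2.9 FPKM). The untested stromal markers Thy1, Cxcl12 and Postn had means of at most 0.09 FPKM. Untested Ly6g was at 0.08 ± 0.04 against 0.05 ± 0.03 FPKM and Ltf at 0.003 against 0.04 FPKM. Of 8 tested macrophage markers 7 were higher and Cd68 lower, with a summed level of 8.06 to 9.88 against 12.0 to 12.3 FPKM, and Adgre1 and Cybb were listed at 0 in every library of LLC alone and had means of 0.48 ± 0.07 and 1.27 ± 0.07 FPKM with BMSCs. Of the adipocyte markers 2 were tested and 1, Lpl, was lower. In bulk samples, a changed number of cells of a type cannot be told apart from a changed RNA level per cell. The carcinoma label could not be checked on epithelial markers, since 6 of the 7 markers in the files, Epcam and Cdh1 among them, were under 1 FPKM in both groups and only Krt8 was high (95.3 ± 6.0 and 110 ± 2.9 FPKM, SD, n = 3).

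All 10 genes passed the filter on low counts and were tested. With BMSCs, 9 of the 10 passed the test, beside 62.9% of all genes: Pgf, Angpt1, Flt1, Vegfc and Vegfb were higher and Angpt2, Angptl4, Nrp1 and Vegfa lower. Nrp2 alone did not pass. In the same 9 genes the groups did not overlap, beside 70.6% of all genes. A change of at least 2-fold in addition to the test was seen in 4 of the 10, beside 15.8% of all genes, and these were Pgf, Angpt2, Angpt1 and Flt1. Their median log2 fold change was 0.24, beside 0.01 over all genes tested, and single genes ranged from -2.63 to 3.37.

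**Figure D1:**
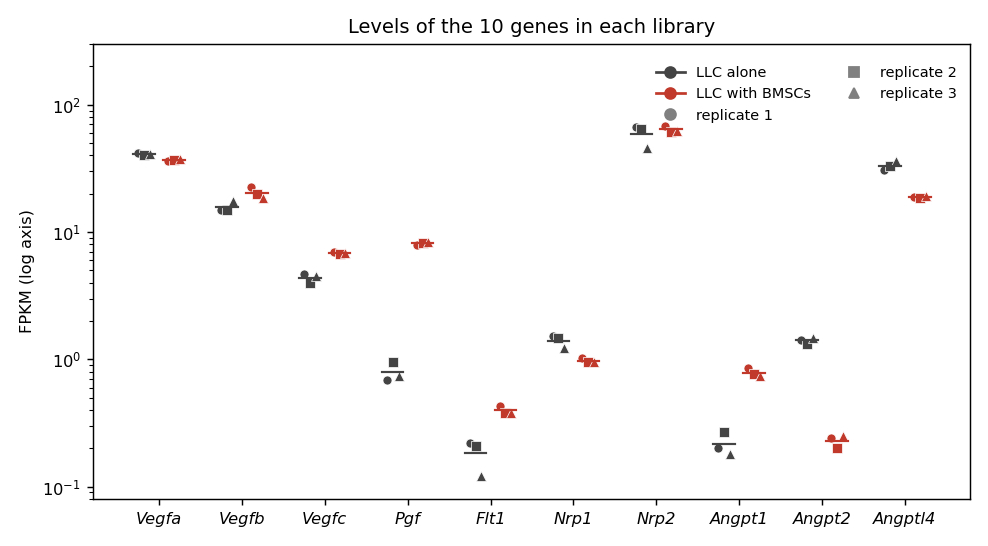
FPKM of the 10 genes (log axis) in each of the 3 libraries of LLC alone (grey) and LLC with BMSCs (red), with a line at each group mean. Nrp2 is the only gene whose groups overlap, Pgf rises from under 1 to about 8 FPKM, and Angpt1 and Angpt2 change places.

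By level, Nrp2 stood first in LLC alone (mean 59.0 FPKM), followed by Vegfa, Angptl4, Vegfb and Vegfc, none of which overlapped its neighbour in this order. Angpt2 and Nrp1 followed near 1.4 FPKM and overlapped each other, then Pgf at 0.793 FPKM, and Angpt1 and Flt1 last, overlapping each other at 0.217 and 0.183 FPKM. With BMSCs, Pgf moved from the 8th place to the 5th and Angpt2 from the 6th to the last. Vegfb and Angptl4 overlapped there, and the other neighbours did not.

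Among the ligands, Pgf changed most. Its level was 0.69, 0.95 and 0.74 FPKM in LLC alone replicates 1 to 3, and 7.91, 8.26 and 8.40 FPKM in LLC with BMSCs replicates 1 to 3. Every library with BMSCs was thus several times above every library without. The estimated counts behind these levels were 49, 48 and 52 against 539, 556 and 562. Pgf was 10.3-fold higher with BMSCs (log2 fold change 3.37 ± 0.12 SE, edgeR adjusted p = 5.95e-07). Nearly all of it came from the transcript NM_008827, which carried the whole gene level in all libraries but LLC alone replicate 2, where a second, shorter transcript was listed at 0.06 FPKM.

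Vegfc, the lymphatic growth factor, stood at 4.65, 3.98 and 4.53 FPKM in LLC alone and at 7.0, 6.76 and 6.87 FPKM with BMSCs. The groups lay well apart, with a rise of 1.54-fold (log2 fold change 0.62 ± 0.08 SE, edgeR adjusted p = 4.49e-04).

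Vegfb rose less and with more spread. It measured 14.87, 14.89 and 17.37 FPKM in LLC alone and 22.76, 19.82 and 18.63 FPKM with BMSCs, so that the highest library of one group and the lowest of the other were close. The change was 1.26-fold (log2 fold change 0.34 ± 0.10 SE, edgeR adjusted p = 0.0216). The call was lost without LLC alone replicate 1 (adjusted p = 0.0718), without LLC alone replicate 2 (0.0662) or without LLC with BMSCs replicate 1 (0.0701), by the same edgeR test, and with the trend over gene length removed the log2 fold change was 0.59 (edgeR adjusted p = 4.06e-04). The rise lay in the transcript that lacks the segment shown above. NM_001185164 was at 4.97, 7.21 and 6.42 FPKM in LLC alone and at 10.99, 10.40 and 10.29 FPKM with BMSCs, while NM_011697 was at 9.90, 7.68 and 10.95 against 11.76, 9.42 and 8.34 FPKM. In the fit over all transcripts, of which 34.2% passed the test and 16.6% passed it as higher with BMSCs, NM_001185164 rose (log2 fold change 0.73, edgeR adjusted p = 0.0192) and NM_011697 did not pass (0.01, edgeR adjusted p = 0.972). The shorter transcript held 39.6% ± 7.8 of the Vegfb FPKM in LLC alone and 52.0% ± 3.5 with BMSCs (SD, n = 3), and these shares overlapped.

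Vegfa, the most abundant ligand, fell slightly. It measured 41.75, 40.13 and 40.71 FPKM in LLC alone and 36.34, 36.77 and 37.26 FPKM with BMSCs. The groups did not overlap because the libraries of each group lay within 2 FPKM of one another. The fall was 0.17 on the log2 scale (log2 fold change -0.17 ± 0.05 SE, edgeR adjusted p = 0.0239), a 1.12-fold lower level. This call was the least firm of the 9, and it was lost without LLC alone replicate 1 (adjusted p = 0.0929) and without LLC with BMSCs replicate 1 (0.0549), 2 (0.0949) or 3 (0.0759), by the same edgeR test.

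Within the small change of Vegfa, the estimates for its splice forms went in unlike directions. The files list 10 Vegfa transcripts with 6 lengths, and the lengths fall into a longer and a shorter set, each stepping down by 72 and then 132 bases, the sizes of exons 6 and 7. Transcripts of 1 length held equal estimates in every library, so they could not be told apart and were summed by the exons they hold. The form with exons 6 and 7 stood at 0.88, 0.80 and 0.81 FPKM in LLC alone and at 1.77, 1.73 and 1.58 FPKM with BMSCs. The form with exon 7 but not exon 6 stood at 18.75, 19.05 and 18.60 against 16.13, 18.46 and 18.41 FPKM. The form with neither exon stood at 22.10, 20.27 and 21.30 against 18.43, 16.61 and 17.27 FPKM. The groups did not overlap in any of the 3 forms, with higher values with BMSCs in the first and lower values in the others. This is common here, since 70.6% of all genes did not overlap either, and the share was not taken for transcripts. In the form with exon 7 only the nearest libraries were 18.60 and 18.46 FPKM. With the forms in the transcript table, which was a choice made after seeing the data, the form with both exons was higher (log2 fold change 1.0 ± 0.15 SE, edgeR adjusted p = 0.00535), the form with neither was lower (-0.31 ± 0.06, adjusted p = 0.0139) and the form with exon 7 alone did not pass (-0.13 ± 0.07, adjusted p = 0.184).

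The single transcripts that passed the test went in the direction of their forms, with less certainty. Of the 10 Vegfa transcripts, 4 passed the test, beside 34.2% of all transcripts, and they hold 2 distinct estimates. NM_001025250 and NM_001287056, with exons 6 and 7, had a log2 fold change of 1.08 (edgeR adjusted p = 0.0337), and NM_001025257 and NM_001287058, with neither exon, of -0.28 (edgeR adjusted p = 0.038). Among those that did not pass, NM_001110267, with exon 7 only, was at 0.04 (edgeR adjusted p = 0.93), opposite in sign to its form. NM_001110266, with both exons, was at 0.06 ± 2.04 SE (edgeR adjusted p = 0.986). The rest kept the sign of their form. When any 1 of the libraries with BMSCs was left out, none of the 10 passed by edgeR (4 or 5 had an unadjusted p under 0.05), and DESeq2 on all libraries called 4. The form with both exons made up 2.03% ± 0.07 of the Vegfa FPKM in LLC alone and 4.61% ± 0.33 with BMSCs, so it stayed the rarest of the 3. The exact two-sided permutation test of 3 libraries against 3 cannot go below p = 0.1, which is the value this share reached. The shares of the other 2 forms overlapped between the groups. With exon 7 only the share was 46.0% ± 1.3 in LLC alone and 48.0% ± 3.1 with BMSCs (exact permutation p = 0.4). With neither exon it was 51.9% ± 1.3 and 47.4% ± 2.9 (exact permutation p = 0.2).

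**Figure D2:**
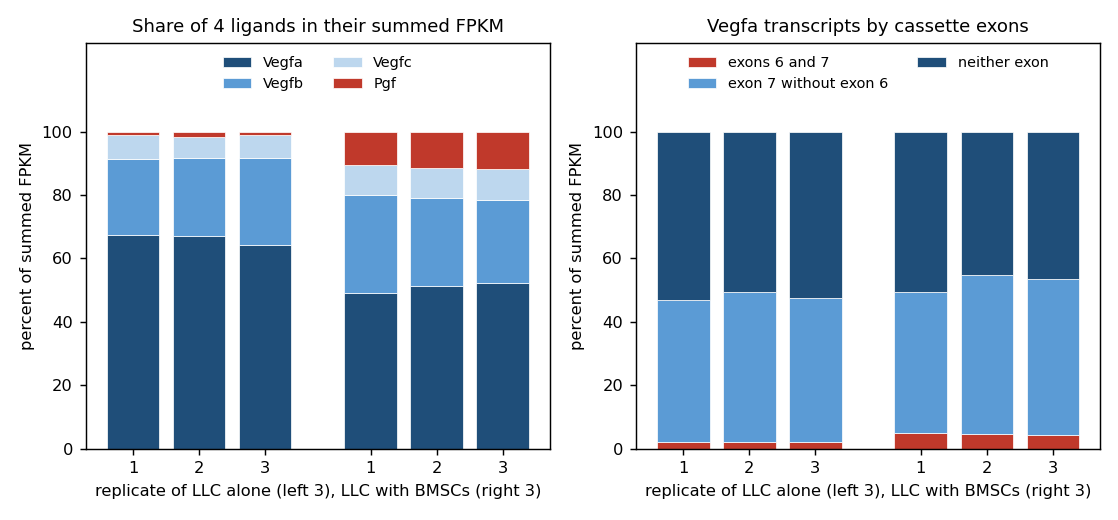
Stacked bars of the share (percent of summed FPKM) of 4 ligands (left) and of the Vegfa forms with exons 6 and 7, with exon 7 only and with neither (right), 1 bar per library. With BMSCs the Pgf band widens from 1.11–1.58% to 10.7–11.8%, and the band of the form with both exons from about 2% to over 4%.

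Read as shares of their summed FPKM, the 4 ligands shifted from Vegfa toward Pgf. The shares add up to a whole, so the share of Vegfa also falls when other ligands rise. The mean level of Vegfa itself went from 40.86 to 36.79 FPKM, while Pgf went from 0.793 to 8.19 and Vegfb from 15.71 to 20.4 FPKM. Vegfa held 67.4%, 66.9% and 64.3% of their summed FPKM in LLC alone and 49.1%, 51.3% and 52.4% with BMSCs. Pgf held 1.11%, 1.58% and 1.17% against 10.7%, 11.5% and 11.8%. Vegfc went from 7.10% ± 0.44 to 9.52% ± 0.12 (SD, n = 3), and Vegfb from 25.4% ± 1.8 to 28.2% ± 2.3, with overlapping groups. In a family of 14 shares and ratios tested in this way, the exact permutation p was 0.1 for these shares of Vegfa, Pgf and Vegfc, and no value adjusted over the family was below 0.175. The number of libraries keeps every unadjusted p at 0.1 or above. Vegfd, the other ligand of FLT4, was not counted in the shares of the 4 ligands. It was tested as part of a related list and was lower with BMSCs, at 6.19 ± 0.29 against 4.80 ± 0.36 FPKM (log2 fold change -0.42, edgeR adjusted p = 0.00361).

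Among the receptors, Flt1 rose from a very low level. Its estimated counts were 64, 43 and 34 in LLC alone and 120, 103 and 104 with BMSCs, or 0.22, 0.21 and 0.12 FPKM against 0.43, 0.38 and 0.38 FPKM. LLC alone replicate 3 was the lowest, and the groups did not overlap with or without it. The log2 fold change was 1.11 ± 0.22 SE (2.16-fold, edgeR adjusted p = 0.00323), and 0.87 without that library (edgeR adjusted p = 0.00108). The only Flt1 transcript in the files was the long one, NM_010228, of 6280 bases, so soluble and membrane-bound Flt1 were not told apart here.

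The other receptors of these ligands were close to 0. Kdr, Flt4, Tek, Tie1 and the TIE2 ligand gene Angpt4 had mean levels of 0.01 to 0.02 FPKM in both groups, did not pass the filter on low counts and were not tested. Of the 16 endothelial markers, 14 were under 1 FPKM in both groups, and 1 of the 5 tested was higher and 1 lower with BMSCs. Their summed level was 11.5 to 14.5 FPKM in LLC alone and 11.4 to 11.9 FPKM with BMSCs, most of it Egfl7 (11.2 ± 1.5 and 10.1 ± 0.08 FPKM, SD, n = 3). Plvap was the marker that rose (0.20 ± 0.08 to 0.48 ± 0.05 FPKM, log2 fold change 1.29, edgeR adjusted p = 0.00364) and Esam the one that fell (1.21 ± 0.23 to 0.68 ± 0.12 FPKM). Among the untested ones, Cdh5 was at 0.01 against 0.06 ± 0.02 FPKM, and Emcn and Erg were listed at 0 in every library of LLC alone and at 0.02 or 0.03 FPKM in each library with BMSCs. The part of endothelial or other cells in the rise of Flt1 was not tested.

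Of the neuropilins, Nrp1 was lower with BMSCs and Nrp2 did not pass the test. Nrp2, at 66.75, 65.03 and 45.34 FPKM in LLC alone and 68.12, 61.39 and 62.28 FPKM with BMSCs, was the most abundant of the 10 genes. LLC alone replicate 3 was low and the groups overlapped. The log2 fold change was 0.14 ± 0.13 SE (edgeR adjusted p = 0.38), and it was -0.0043 (edgeR adjusted p = 0.949) without that library. Nrp1 was at 1.02, 0.96 and 0.95 FPKM with BMSCs against 1.52, 1.46 and 1.22 FPKM in LLC alone, with no overlap. Its log2 fold change was -0.54 ± 0.10 SE (edgeR adjusted p = 0.00264), and -0.62 (edgeR adjusted p = 2.26e-04) without LLC alone replicate 3. On the log2(FPKM + 1) scale, which understates changes of low genes, limma gave -0.28 (adjusted p = 0.00677). Nrp2 was 41.9 ± 4.1 times as abundant as Nrp1 in LLC alone and 65.4 ± 1.4 times with BMSCs (FPKM ratio, SD, n = 3).

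Within Nrp2 the 6 transcripts fell into 4 long ones, of 6673 to 6739 bases, and 2 short ones, of 4696 and 4711 bases. The short ones held 27.4%, 26.8% and 19.4% of the Nrp2 FPKM in LLC alone and 15.9%, 15.4% and 15.6% with BMSCs. The groups did not overlap in this share (exact permutation p = 0.1, the smallest possible), although none of the 6 transcripts passed the test by itself. The short transcripts had log2 fold changes of -0.51 (edgeR adjusted p = 0.495) and -0.62 (edgeR adjusted p = 0.105).

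The angiopoietins moved in opposite directions. Angpt1 was at 39, 39 and 36 estimated counts in LLC alone and at 161, 143 and 137 with BMSCs, or 0.20, 0.27 and 0.18 FPKM against 0.85, 0.76 and 0.74 FPKM. It was 3.58-fold higher (log2 fold change 1.84 ± 0.17 SE, edgeR adjusted p = 6.2e-05). Its 2 transcripts differ by 3 bases in length, and neither passed the test alone.

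Angpt2 was at 197, 133 and 201 estimated counts in LLC alone and at 32, 26 and 33 with BMSCs, or 1.42, 1.33 and 1.47 FPKM against 0.24, 0.20 and 0.25 FPKM. It was 6.19-fold lower (log2 fold change -2.63 ± 0.14 SE, edgeR adjusted p = 3.73e-06), the strongest fall of the 10, and limma gave -0.97 on the log2(FPKM + 1) scale (adjusted p = 5.43e-06). Most of the Angpt2 level, 92.2% ± 5.1 in LLC alone and 93.2% ± 6.3 with BMSCs, lay in 2 transcripts that the authors assembled from the reads, and the annotated transcript NM_007426 was listed at 0.19 FPKM or less. Both assembled transcripts were lower with BMSCs (log2 fold changes -2.33 and -3.38, edgeR adjusted p = 0.00193 and 0.00993).

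Angpt1 and Angpt2 thereby changed order. The ratio of Angpt1 to Angpt2 FPKM was 0.141, 0.203 and 0.122 in LLC alone and 3.54, 3.80 and 2.96 with BMSCs. Both genes are low, near or under 1 FPKM, and the ratio rests on the counts given above. Stromal markers were higher in the same libraries as Angpt1 and Pgf: Dcn went from 0.11 ± 0.02 to 6.31 ± 0.22 FPKM and Col1a1 from 0.01 ± 0.01 to 2.0 ± 0.21 FPKM. Of 4 tested pericyte markers 3 were higher and Cspg4 lower, and the summed level of the list was 6.27 to 8.31 against 9.20 to 10.3 FPKM. The part of such cells in the changes of Pgf, Angpt1 and Angpt2 was not tested.

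Angptl4, the lipase inhibitor, was at 30.56, 32.76 and 36.39 FPKM in LLC alone and at 18.76, 18.45 and 19.02 FPKM with BMSCs. The libraries with BMSCs lay within 1 FPKM of one another and far below the rest. Angptl4 was 1.80-fold lower (log2 fold change -0.85 ± 0.08 SE, edgeR adjusted p = 5.42e-05). Of the other angiopoietin-like genes, 4 of 6 were below 1 FPKM and untested. Angptl6 fell from 17.1 ± 1.7 to 1.38 ± 0.17 FPKM (log2 fold change -3.41, edgeR adjusted p = 2.6e-07), and Angptl2 rose from 29.1 ± 0.98 to 44.4 ± 1.3 FPKM (0.59, edgeR adjusted p = 8.26e-05).

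**Figure D3:**
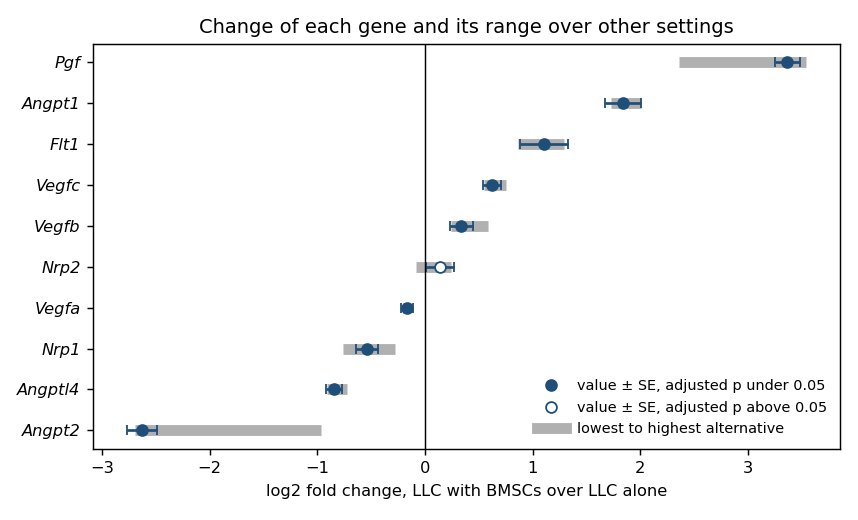
Log2 fold change of each gene (LLC with BMSCs over LLC alone) as a point with its SE, filled where the adjusted p is under 0.05, over a grey bar from the lowest to the highest value under the other settings. Of the 10 genes, only the bar of Nrp2 crosses 0.

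Lists of related genes place these values. They were drawn up with earlier results of these data known, and each is described by its counts, read against the 31.5% of all tested genes that were higher and the 31.3% that were lower. Of the other VEGF and TIE pathway genes, 15 of 22 were tested, and 6 were higher (40.0%) and 2 lower (13.3%), with a median log2 fold change of 0.07, beside 0.01 over all genes. As examples, chosen after their values were seen, Plcg1, which encodes a phospholipase downstream of VEGF receptors, rose from 12.0 ± 2.6 to 15.8 ± 1.1 FPKM, and the adaptor gene Nck1 fell from 12.2 ± 0.21 to 8.50 ± 0.59 FPKM.

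The list of semaphorins, plexins and other neuropilin partners had 14 tested genes, among them Gipc1 and Nrcam, which are neither semaphorins nor plexins. Of the 14, 4 were higher and 4, Nrcam among them, lower (28.6% each, near the 31.5% and 31.3% of all genes). The median was -0.16. Sema3e, a ligand of plexin D1, fell from 17.4 ± 1.9 to 8.21 ± 0.41 FPKM (log2 fold change -1.10, edgeR adjusted p = 3.57e-05). Plxna4, a plexin that pairs with neuropilins, rose from 0.853 ± 0.23 to 1.75 ± 0.17 FPKM (1.02, edgeR adjusted p = 0.0021). Its level in LLC alone replicate 3 was 0.59 FPKM, against 0.96 and 1.01 FPKM in replicates 1 and 2.

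A list of 25 genes was drawn up as induced by hypoxia through HIF, as Vegfa is, and membership was not checked gene by gene. Of the 25, 18 were higher (72.0%, beside 31.5% of all genes) and 1 lower (4.0%, beside 31.3%), with a median of 0.81. Bnip3, a mitophagy gene, went from 34.0 ± 2.2 to 118 ± 7.7 FPKM and Egln3, an oxygen-sensing hydroxylase, from 55.8 ± 1.7 to 179 ± 4.6 FPKM. Adm, which encodes the vasodilator adrenomedullin, went from 14.8 ± 1.0 to 45.1 ± 1.8 FPKM. Selenbp1, whose place among HIF targets is the least certain here, went from 3.35 ± 0.16 to 33.4 ± 1.0 FPKM. P4ha2 and Egln1 rose as well, with log2 fold changes of 1.42 and 1.14. Vegfa and Angptl4, both also known as hypoxia-induced, were lower in the same libraries, and so was Ddit4, the 1 gene of the list that fell.

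Angptl4 is also a PPAR target. The list of PPAR targets, which also holds PPAR receptor genes, had 11 tested genes. Of these, 7 were lower (63.6%, beside 31.3% of all genes) and 2, the receptor gene Ppard among them, higher (18.2%, beside 31.5%), with a median of -0.45. Plin2, which coats lipid droplets, fell from 188 ± 11 to 42.6 ± 1.2 FPKM (log2 fold change -2.16) and Cpt1a, which admits fatty acids to mitochondria, from 24.9 ± 2.5 to 12.3 ± 0.72 FPKM (-1.03), while the receptor gene Ppard rose from 10.8 ± 0.34 to 22.0 ± 2.9 FPKM (1.01). In the lipoprotein lipase axis, 3 of 5 tested genes were higher (60.0%) and 2 lower (40.0%, beside 31.5% and 31.3% of all genes), with a median of 0.30. Lpl, the enzyme that Angptl4 inhibits, went from 6.90 ± 0.41 to 6.02 ± 0.34 FPKM (-0.22, edgeR adjusted p = 0.0246).

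Of 10 tested angiogenesis inhibitors, 6 were higher (60.0%) and 2 lower (20%, beside 31.5% and 31.3% of all genes), with a median of 0.57. Thbs1, encoding thrombospondin 1, rose from 1.65 ± 0.36 to 6.56 ± 0.11 FPKM and the angiostatic chemokine Cxcl10 from 14.6 ± 1.2 to 50.7 ± 3.4 FPKM. The 2 that fell were Serpinf1, the most abundant of the list (452.7 ± 39 to 298.2 ± 10 FPKM), and Thbs2 (30.2 ± 3.7 to 16.0 ± 0.37 FPKM). The summed level of the list was lower with BMSCs, at 539.8 to 605.8 FPKM in LLC alone and 446.8 to 468.6 FPKM with BMSCs. Of 17 other tested angiogenic factors, 9 were higher (52.9%) and 4 lower (23.5%, beside the same shares of all genes), with a median of 0.45. Of the 23 factors listed, 13 were under 1 FPKM in both groups. The summed level overlapped, at 679.3 to 815.5 FPKM in LLC alone and 623.2 to 712.4 FPKM with BMSCs. Mmp9, a matrix protease also made by neutrophils, rose from 0.147 ± 0.038 to 5.39 ± 0.13 FPKM and Plau, the urokinase gene, from 4.77 ± 0.14 to 28.8 ± 1.3 FPKM, whereas Ptn, encoding pleiotrophin, fell from 7.30 ± 0.24 to 2.21 ± 0.28 FPKM and Lgals3, encoding galectin 3, from 209 ± 20 to 68.4 ± 4.8 FPKM.

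**Figure D4:**
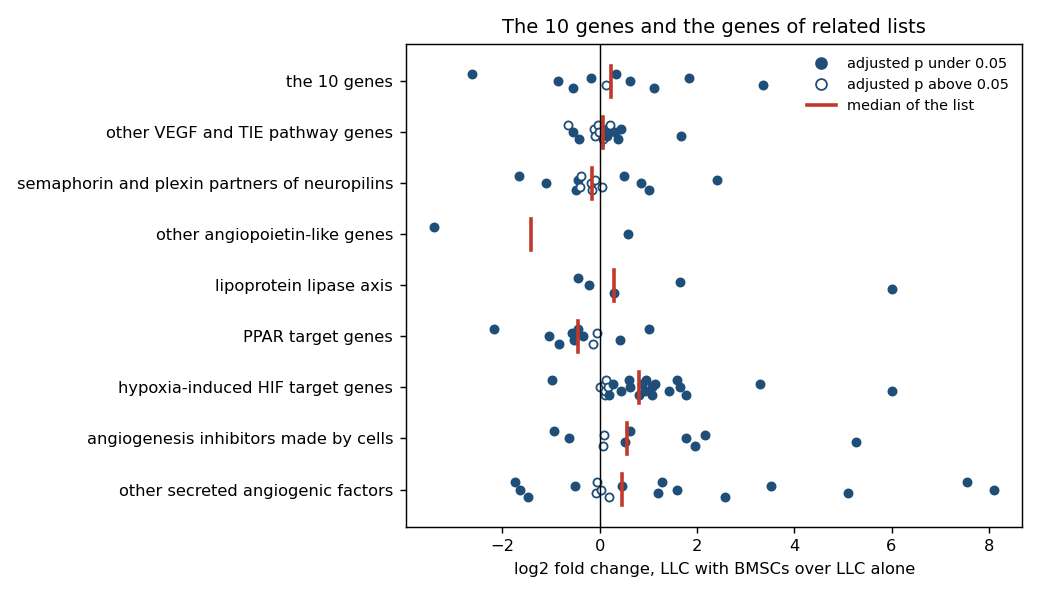
Log2 fold change (LLC with BMSCs over LLC alone) of the 10 genes in the top row and of the tested genes of each related list below, 1 point per gene, filled where the adjusted p is under 0.05, with a red line at the list median. The hypoxia-induced list has its median at 0.81 and the PPAR target list at -0.45. Points beyond 5 are genes at or near 0 in LLC alone, whose fitted size depends on the prior count.

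The 3 genes with levels most like those of Vegfa over the 6 libraries, by Euclidean distance of log2 CPM (counts scaled to library size), were Hbs1l (distance 0.045), Tm9sf2 (0.092) and Cdc42se1 (0.12). Each was slightly lower with BMSCs, with log2 fold changes of -0.13, -0.10 and -0.12.

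The region upstream of a RefSeq start of Pgf is shown because Pgf changed most. The RefSeq promoter table for GRCm38.p6 held 9 windows of 300 bases for 7 of the 10 genes, Vegfa, Vegfb, Vegfc, Pgf, Flt1, Nrp1 and Nrp2. The letters GCGTG, one spelling of the core of hypoxia response elements, were found on either strand in 6 of the 9 windows and in 32.4% of the 32851 windows of the table. The other spelling, ACGTG, was found in 1 of the 9, at the downstream Vegfa start, and in 19.6% of all windows. That window is also among the 6 with GCGTG. It lies inside the Vegfa gene as placed above, and no GENCODE M21 transcript starts at its start, so it may not be a promoter. No GENCODE M21 transcript starts at the upstream Vegfa, the Vegfc or the Nrp2 start of the RefSeq table either. The STAT motif TTCNNNGAA and the AP-1 motif TGANTCA were in none of the 9, against 8.3% and 7.81% of all windows, and the interferon-stimulated element was in 1, at the upstream Vegfa start, against 3.44%. The PPAR element and the second STAT spacing were in none of the 9, against 0.0396% and 6.95% of all windows. In GENCODE M21 the Pgf gene spans chr12:85166635-85177790, and no transcript there starts at either Pgf start of the RefSeq table. The 250 bases before the upstream RefSeq start, chr12:85177314-85177563 on the minus strand, thus lie inside the GENCODE gene. They are printed 5′ to 3′ with the 1 match to GCGTG, read on the other strand, in capitals.
Pgf upstream: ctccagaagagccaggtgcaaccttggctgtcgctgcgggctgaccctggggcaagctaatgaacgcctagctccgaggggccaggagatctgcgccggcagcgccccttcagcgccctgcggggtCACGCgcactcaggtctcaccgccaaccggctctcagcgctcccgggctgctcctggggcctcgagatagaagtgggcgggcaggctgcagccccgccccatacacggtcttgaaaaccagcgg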

How the data were processed

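RNA of sorted LLC-RFP cells was sequenced in 6 libraries, 3 per group, grouped and numbered by their labels. Per the study's methods, messenger RNA was taken with oligo-dT beads and sequenced at BGI. The authors deposited expected counts, which are estimated counts per gene and per transcript, and FPKM values, normalised by the authors to transcript length and library size. The submitters' processing notes name HISAT, StringTie, Cufflinks, GATK and the build mm8, with no versions. The deposited tables hold no coordinates, and positions given here are those of GRCm38 (GENCODE M21), which were not applied to the files. Columns of gene annotation in the whole-series table were not used, and its FPKM values equalled those of the single files. Genes of the lists that are not in the files were not analysed here.

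Estimated counts, of which 21.9% to 23.2% per library were not whole, were rounded, filtered with filterByExpr, scaled by TMM and tested with edgeR 4.0.16 (quasi-likelihood, R 4.3.3) over all genes, and likewise over all transcripts, called at 0.05 after Benjamini-Hochberg adjustment. The step was tested on simulated data. Depth was 33476347 to 46189113 estimated counts per library, so that Flt1, Angpt1 and Angpt2, with at most 201 counts in any library, are the least precise. Shares were compared by exact permutation (scipy 1.17.1). Over 10334 genes with at least 100 counts in every library, chi-square per degree of freedom was 5.03 between LLC alone replicates 1 and 2 and 3.19 between LLC with BMSCs replicates 2 and 3, and 22.6 to 74.3 between the other pairs of a group. All were above the sampling noise, and each library was counted once.

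Alternatives were DESeq2 1.42.0, upper-quartile scaling, library size without TMM, at least 10 counts in every library or no filter, limma 3.58.1 on log2(FPKM + 1) and log2(FPKM + 0.1) for genes with at least 1 FPKM in at least 3 libraries, the replicate number as a block, each library left out, the trend over gene length removed and a fold change threshold. Close pairs of libraries summed and Vegfa transcripts summed by exons were chosen after seeing the data. The 10 genes, the lists and the motifs were chosen with earlier results of these data known. Named genes are the 10, genes of the lists past the threshold with at least a 2-fold change and 1 FPKM in a group (at most 6 per list, by size of change), receptors and ligands of the 10, and the 3 genes nearest to Vegfa. A gene that met this rule is not reported here. Angptl2, Lpl, Ddit4, Krt8, Epcam, Cdh1, Egfl7, Plvap, Esam, Cdh5, Emcn, Erg, Cd68, Adgre1 and Cspg4 were named after their values were seen. The same holds for Gipc1, Nrcam, Ly6g, Ltf, Thy1, Cxcl12, Postn, Serpinf1 and Thbs2.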

Additional observations from a re-analysis of the deposited data

How the results depend on the processing

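Of 156 log2 fold changes of the 10 genes under the alternatives, 144 kept their direction and side of the threshold, 10 kept the direction but no longer passed and 2 reversed. The 10 were Vegfa in 6 alternatives and Vegfb in 4, and the 2 were Nrp2, at -0.083 with the trend over gene length removed and at -0.0043 without LLC alone replicate 3 (-0.0043 to 0.2281 over the libraries left out). LLC alone replicate 3 has the lowest Nrp2 level. Vegfc, Pgf, Nrp1, Angpt2 and Angptl4 kept their call in all 16 alternatives, and Flt1 and Angpt1 in all 14 that tested them.

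With a threshold of at least 2-fold, 4 of the 10 genes passed (3 higher, 1 lower) and 2112 of all genes (1155 higher, 957 lower). In both limma fits 3 of the 10 were higher, since Flt1 and Angpt1 fell under the FPKM filter. Of the Vegfa transcripts, 2 passed without TMM, 2 when summed by exons, 0 with the replicate block and 0 to 2 when a library was left out. Where the edgeR count was 0, 4 or 5 of the 10 had an unadjusted p under 0.05, and DESeq2 on all libraries called 4. Values that reversed among uncalled Vegfa transcripts were -0.0172 for NM_001110266 with upper-quartile scaling and -0.5216 to 6.9104 when a library was left out, and -0.1615 to 0.3153 for NM_001110267 when a library was left out, and the cause was not tested.

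The replicate numbers did not pair the libraries, since the deviations of same-numbered libraries correlated at 0.0762, -0.1064 and 0.0572, and not every library correlated best with its own number. With the replicate block, 9 of the 10 genes became 8, Vegfa being lost (adjusted p = 0.0694), and 8219 of all genes passed in place of 8393.

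With close pairs summed, Vegfa (adjusted p = 0.189) and Vegfb (adjusted p = 0.0776) were lost by the edgeR test. Low counts limit Flt1, Angpt1 and Angpt2 and the Vegfa transcripts with both exons, and the exact permutation tests cannot pass the threshold with 3 libraries a group.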
